A study of Rattus norvegicus with 6 samples.

Results

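The fibroblast markers are 10 genes that heart fibroblasts are known to express, Pdgfra, Dcn, Lum, Tcf21, Ddr2, Thy1, Vim, S100a4, Fap and Wt1. They were chosen by name, all 10 were found among the 22250 genes of the deposited table, and each had 1 row. RNA had been sequenced from neonatal rat cardiomyocytes, heart muscle cells freed with collagenase from hearts of 1-day-old Sprague-Dawley rats labelled wild type and cultured in medium with 10% serum. One group of 3 libraries came from cells given the solvent DMSO, the other of 3 from cells given 3Cl-HBA at 40 µM, both for 48 h, and the series title names activation of hydroxy-carboxylic acid receptor 1, a receptor for lactate, as the subject. The labels do not say whether cells other than muscle cells were removed, whether the libraries came from separate cultures or how many animals were pooled, so the p-values measure only the spread between these libraries, which may be technical.

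Fibroblasts are the main matrix-producing cells of the heart, and digestion of a newborn heart frees them together with muscle cells. They multiply in culture while heart muscle cells largely stop dividing, so their transcripts are used to judge how far a cardiomyocyte culture is mixed. Some of the 10 genes mark fibroblasts of the heart closely, such as Tcf21 and Pdgfra, whereas vimentin and S100a4 are also made by endothelial cells, smooth muscle cells and leukocytes, Thy1 by neurons and immature T cells, and Wt1 by the epicardium, the outer cell layer of the heart.

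All 10 markers were detected in each of the 6 libraries, and 0 of 10 changed after 3Cl-HBA by edgeR's quasi-likelihood test at a Benjamini-Hochberg adjusted p under 0.05. The test covered 13903 genes and called 0% of them, so the markers did as the background did. At an unadjusted p under 0.05 there were also 0 markers, against 5.11% of all genes tested. That count became 2 without DMSO replicate 3 (Dcn and Lum), where 963 of 14077 genes tested had such a p. Without 3Cl-HBA replicate 1 it became 1 (Dcn), beside 717 of 14057 genes tested. Neither DESeq2 nor limma-voom called a marker. The markers split evenly by sign, with 5 log2 fold changes above 0 against 49.8% of all genes, and had a median log2 fold change of 0.0024 against -0.00051 for all genes. The libraries held 13240800 to 17202191 reads assigned to genes, each treated library being deeper than each DMSO library, and 16460 to 16671 genes had at least 1 read. Between 0.279% and 0.298% of the reads in a library fell on the 10 markers.

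Levels of different genes were compared as FPKM, reads scaled for gene length and for the total of the library. Vim was the highest at 713 ± 23.3 FPKM (SD, n = 6 libraries, as for the other means over both groups), followed by S100a4 at 568 ± 38.4 and Dcn at 288 ± 15.3 FPKM. Lum at 72.7 ± 3.31 and Ddr2 at 68.9 ± 3.78 FPKM came next, and their ranges over the libraries overlapped. Tcf21 at 30.4 ± 1.79 and Thy1 at 28.0 ± 1.47 FPKM also overlapped, and Pdgfra followed at 22.9 ± 1.2 FPKM. Wt1 at 5.09 ± 0.601 and Fap at 2.03 ± 0.256 FPKM were the lowest, and the mean of Vim was 351-fold that of Fap. All other neighbours in this order had ranges that did not overlap. Among the genes with at least 1 read, Vim, S100a4 and Dcn stood at percentiles 99.7, 99.5 and 98.8 of mean FPKM, Pdgfra at 79.2, Wt1 at 48.2 and Fap at 37.1. Read numbers gave another order, because the transcripts differ in length. Pdgfra, with 6514 bases in the deposited table, had 4.02 times the CPM (reads per 1000000 reads, with TMM scaling between libraries) of Tcf21, with 1222 bases, but 0.755 times its FPKM.

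**Figure D1:**
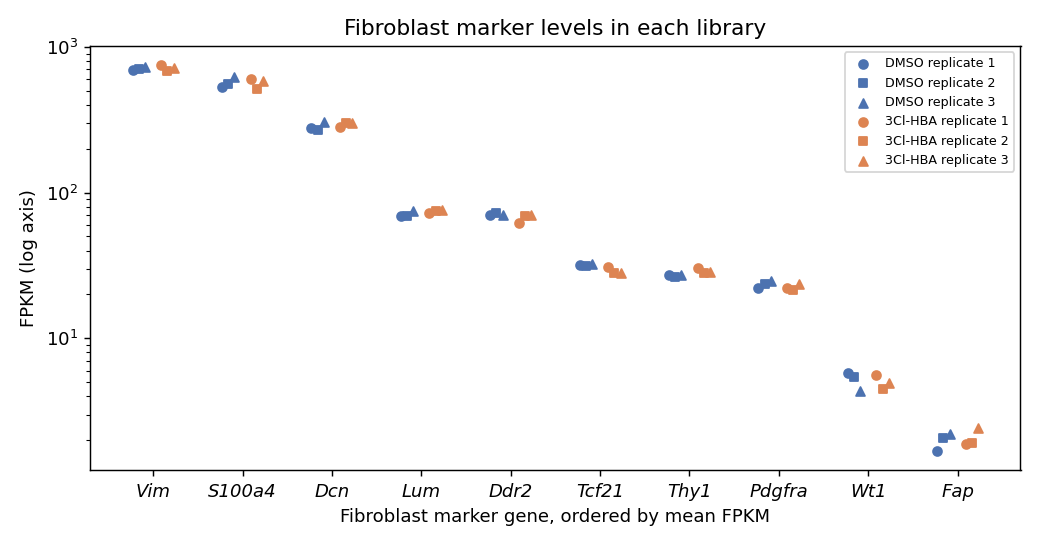
FPKM of each fibroblast marker in each library on a log axis, with genes ordered by mean FPKM, blue symbols for DMSO and orange symbols for 3Cl-HBA (3 libraries each, symbol shape giving the replicate number). The means run from 713 FPKM for Vim to 2.03 for Fap, and in each gene the symbols of both treatments lie close together.

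The DNA before the transcript start is shown for the top and bottom of this order, Vim, S100a4 and Fap. A link between level and sequence was not tested. RefSeq (build GRCr8, which may differ from the build of the deposited table) gave a promoter for 7 of the 10 genes, not for Dcn, Ddr2 or Thy1. The 250 bases before each start are written 5′ to 3′ on the gene's strand, with the letters TATAAA (the core of a TATA box) and GGGCGG (the core of a GC box), searched on both strands, in capitals. They lie at chr17:81577011-81577260 (plus strand), chr2:178388279-178388528 (plus strand) and chr3:67616092-67616341 (minus strand).
Vim: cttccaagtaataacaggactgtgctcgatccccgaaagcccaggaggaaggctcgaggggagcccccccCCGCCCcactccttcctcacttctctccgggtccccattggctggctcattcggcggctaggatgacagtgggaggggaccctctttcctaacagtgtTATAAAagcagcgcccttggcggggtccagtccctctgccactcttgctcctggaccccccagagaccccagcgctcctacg
S100a4: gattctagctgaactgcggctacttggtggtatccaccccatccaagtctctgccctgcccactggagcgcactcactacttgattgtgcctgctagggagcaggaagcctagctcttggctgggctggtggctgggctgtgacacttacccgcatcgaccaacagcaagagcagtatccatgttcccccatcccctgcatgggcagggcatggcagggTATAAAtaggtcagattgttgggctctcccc
Fap: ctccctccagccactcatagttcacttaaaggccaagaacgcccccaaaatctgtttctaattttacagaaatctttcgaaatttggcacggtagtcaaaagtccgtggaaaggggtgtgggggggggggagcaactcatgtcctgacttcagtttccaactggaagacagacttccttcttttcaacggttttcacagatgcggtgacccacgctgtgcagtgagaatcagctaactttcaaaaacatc
TATAAA was found in 2 of the 7 windows, those of Vim and S100a4, beginning 82 and 31 bases before the start, and 12.9% of 33469 rat promoter windows of this length hold it. GGGCGG was found in 1 of the 7, that of Vim, where it lies on the opposite strand (CCGCCC), and 30.5% of all windows hold it. The letters CANNTG, an E-box as bound by basic helix-loop-helix proteins such as the Tcf21 product, were found in 4 of the 7, those of Pdgfra, Lum, Fap and Wt1, against 65.5% of all windows. No copy of one of these motifs overlapped a copy of another in the 3 windows shown. A match is a run of letters and does not show binding.

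The receptors and other cell surface markers differed little between the groups. Pdgfra, the receptor for platelet-derived growth factor that heart fibroblasts carry (ENSRNOG00000002244, chromosome 14, 35527927 to 35581031, minus strand, in the coordinates of the deposited table, of unstated build), stood at 145, 152 and 162 CPM in the DMSO libraries, in the order of replicates 1 to 3. The 3Cl-HBA libraries, in the same order as throughout, stood at 144, 140.25 and 154 CPM. The lowest values were in treated libraries, and the groups overlapped (log2 fold change -0.068, SE 0.054, 95% interval -0.177 to 0.041, edgeR adjusted p 0.984). Ddr2, a receptor tyrosine kinase that binds fibrillar collagen, had 261, 271 and 263 CPM in DMSO and 229.5, 261 and 263 CPM after 3Cl-HBA. Of the treated libraries only replicate 1 stood below the DMSO range, and the log2 fold change was -0.076 (SE 0.051, 95% interval -0.179 to 0.026), moving to -0.015 without that library. Thy1, a small glycoprotein anchored to the cell surface, had 36.1, 34.9 and 36.3 CPM in DMSO and 40.4, 37.7 and 38.2 CPM after 3Cl-HBA. Each treated library lay above each DMSO library, and the log2 fold change was 0.11 (SE 0.078, edgeR unadjusted p 0.15, adjusted p 0.984), with a 95% interval of -0.043 to 0.271. Fap, a membrane protease of activated fibroblasts, had 54, 69 and 67 reads in DMSO and 63, 76 and 87 reads after 3Cl-HBA, or 3.87, 4.75 and 5.08 CPM against 4.30, 4.44 and 5.54 CPM. The groups overlapped, and at this depth the interval of Fap was the widest of the 10, from 0.789-fold to 1.38-fold.

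The matrix proteoglycans Dcn and Lum were slightly higher on average after 3Cl-HBA without passing the test. Both encode small leucine-rich proteins that bind collagen fibrils, and they are neighbours on chromosome 7 (Dcn 38742051 to 38782323, Lum 38819771 to 38826862, both on the plus strand), 37447 bases apart. Dcn had 513, 498 and 566 CPM in DMSO and 519, 567 and 558 CPM after 3Cl-HBA. DMSO replicate 3 was as high as the treated libraries, and the log2 fold change was 0.060 (SE 0.048, 95% interval -0.037 to 0.157). Lum had 139, 138 and 151 CPM in DMSO and 145, 152 and 155 CPM after 3Cl-HBA. Again DMSO replicate 3 lay inside the treated range, and the log2 fold change was 0.078 (SE 0.053, 95% interval -0.029 to 0.186). Without DMSO replicate 3 the log2 fold changes of Dcn and Lum became 0.113 and 0.118, with edgeR adjusted p of 0.567 and 0.662. With each library left out in turn they ran from 0.0216 (without DMSO replicate 2) to 0.113 for Dcn and from 0.0545 (also without DMSO replicate 2) to 0.118 for Lum. Dcn was 0.0353 without 3Cl-HBA replicate 2 and 0.0976 without 3Cl-HBA replicate 1.

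Of the transcription factors, Tcf21 was lower in each treated library and Wt1 was not. Tcf21, needed for the formation of heart fibroblasts from the epicardium (ENSRNOG00000016700, chromosome 1, 23906717 to 23909566, plus strand), had 38.6, 38.3 and 39.6 CPM in DMSO and 37.4, 34.6 and 34.5 CPM after 3Cl-HBA. The groups did not overlap, but 3Cl-HBA replicate 1 was within 1 CPM of the lowest DMSO library. Its log2 fold change was the largest of the 10 in size and did not pass (-0.13, SE 0.078, edgeR unadjusted p 0.108, adjusted p 0.977), with a 95% interval of -0.286 to 0.029. Wt1, a zinc finger factor of the epicardium, had 15.1, 14.2 and 11.4 CPM in DMSO and 14.6, 11.8 and 13.0 CPM after 3Cl-HBA. Its lowest library was DMSO replicate 3, with 150 reads against 211 and 206 in the other DMSO libraries, and its log2 fold change of -0.051 (SE 0.126) turned to 0.0321 without DMSO replicate 1 and to 0.0215 without 3Cl-HBA replicate 2. Tcf21 and Thy1 were the 2 markers of 10 whose groups did not overlap, against 10.5% of all genes tested, 5.24% higher as Thy1 was and 5.22% lower as Tcf21 was.

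The most abundant markers, Vim and S100a4, were nearly level. Vim, the intermediate filament protein of cells of mesenchymal origin, had 1288, 1313.5 and 1356 CPM in DMSO and 1385, 1277 and 1331 CPM after 3Cl-HBA. Both the highest and the lowest library were treated ones, and the log2 fold change was 0.013 (SE 0.043, 95% interval -0.073 to 0.098). S100a4, a calcium-binding protein also called fibroblast-specific protein, had 349, 364 and 404 CPM in DMSO and 389.8, 339.6 and 381 CPM after 3Cl-HBA. The lowest library was a treated one and the highest a DMSO one, and the log2 fold change was -0.0081 (SE 0.054, 95% interval -0.118 to 0.102). The signs of Vim, S100a4, Fap and Wt1 each turned when single libraries were left out.

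For 10 of 10 markers the whole 95% interval was narrower than a 1.5-fold rise or fall, as it was for 80.9% of all genes tested. For Vim it ran from 0.951-fold to 1.07-fold and for Pdgfra from 0.885-fold to 1.03-fold, so changes of 1.5-fold or more lay outside the intervals. Intervals were not adjusted for the number of genes.

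**Figure D2:**
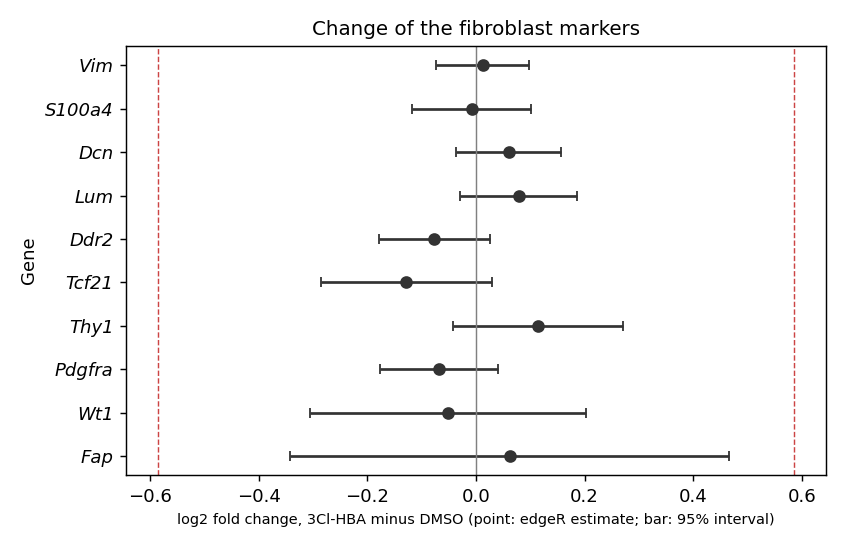
Log2 fold change of each fibroblast marker, 3Cl-HBA minus DMSO, with points for the edgeR estimate and bars for its 95% interval (3 libraries per group); dashed lines mark a 1.5-fold change. Each bar crosses 0 and none reaches a dashed line, with the widest bar for Fap, the gene with the fewest reads.

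How far libraries differed for a marker followed partly from its number of reads. Over the 6 libraries the coefficient of variation of CPM was 3.09% for Vim, 4.85% to 6.72% for the 7 genes of middle level, 11.5% for Wt1 and 12.8% for Fap. Counting reads alone gives 12.1% for Fap and 7.15% for Wt1, but 0.715% for Vim, 1.35% for S100a4 and 1.12% for Dcn. In 6 of the 10 genes the observed variation was more than 2 times the counting value. The highest library divided by the lowest was 1.08 for Vim, 1.15 for Tcf21 and Pdgfra, 1.19 for S100a4 and 1.43 for Fap. No library was highest or lowest in most markers. DMSO replicate 3 was the highest in 3 markers (S100a4, Tcf21 and Pdgfra), and DMSO replicate 2 and 3Cl-HBA replicate 2 were the lowest in 3 each.

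**Figure D3:**
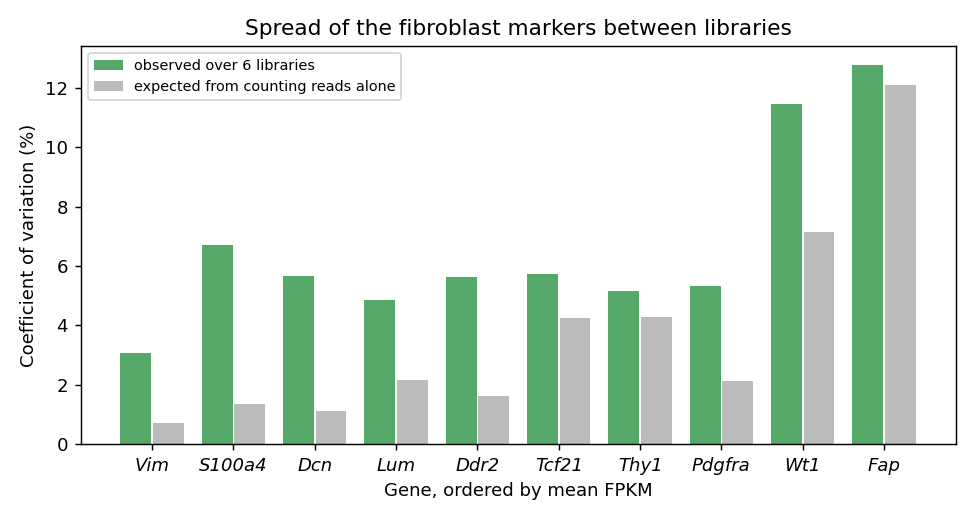
Coefficient of variation of CPM over the 6 libraries for each fibroblast marker (green bars) beside the value expected from counting reads alone (grey bars), in percent. Observed and counting values nearly meet for Fap, 12.8% and 12.1%, and are furthest apart in proportion for S100a4 and Dcn.

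To set the markers beside the muscle cells, 16 cardiomyocyte genes were measured in the same libraries. These were abundant, led by cardiac actin Actc1 at 3366 ± 97.2 FPKM, troponin T Tnnt2 at 2423 ± 101 FPKM and the myosin heavy chain Myh6 at 1401 ± 44.9 FPKM, as the label of the cells states. Summed FPKM of the 10 markers was 14.2, 14.5 and 14.6 per 100 FPKM of the 16 cardiomyocyte genes in the DMSO libraries, and 14.7, 14.1 and 14.8 in the treated libraries. The highest and the lowest of these values were both from treated libraries, and the groups overlapped. Vim and S100a4 made up 71.2% of the summed marker FPKM on average. A subset of 5 markers, Pdgfra, Dcn, Lum, Tcf21 and Ddr2, was taken as less shared with other heart cells, which was not tested. Its sums were 3.85, 3.82 and 3.91 per 100 in DMSO and 3.70, 4.05 and 4.03 after 3Cl-HBA. Here the treated libraries lay on both sides of the DMSO range. These ratios compare RNA and are not shares of cells, and in bulk samples fewer cells of a type and less RNA per cell cannot be told apart.

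On the log2 scale, which weights each gene equally, the mean log2 CPM of the markers minus that of the cardiomyocyte genes was -3.183, -3.157 and -3.191 in DMSO and -3.135, -3.176 and -3.134 after 3Cl-HBA. The means were -3.18 ± 0.018 and -3.15 ± 0.024 (SD, n = 3 each), a difference of 0.028, and the groups overlapped through 3Cl-HBA replicate 2. With the same subset of 5 markers the means were -2.504 ± 0.0058 and -2.503 ± 0.026, a difference of 0.0011. The mean log2 CPM of the markers themselves was 6.68 in both groups, while that of the cardiomyocyte genes was 9.86 ± 0.046 in DMSO and 9.83 ± 0.023 after 3Cl-HBA. The cardiomyocyte mean was highest, 9.91, in DMSO replicate 3. With all libraries the group difference was 0.00014 in the marker mean and -0.028 in the cardiomyocyte mean. Without DMSO replicate 3 the 2 values were 0.0165 and -0.0051, and without 3Cl-HBA replicate 2 they were 0.021 and -0.021. Without DMSO replicate 1 they were -0.0177 and -0.0431, and without 3Cl-HBA replicate 3 they were -0.0227 and -0.044. Without DMSO replicate 2 they were -0.0029 and -0.0414, and without 3Cl-HBA replicate 1 they were -2.28e-05 and -0.022. Which term held the difference thus depended on the libraries kept.

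**Figure D4:**
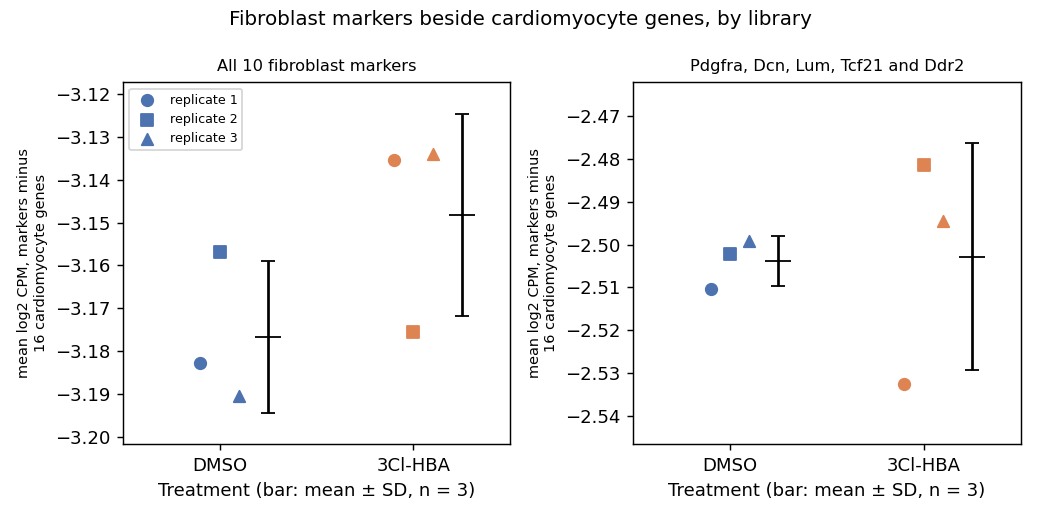
Mean log2 CPM of the fibroblast markers minus that of 16 cardiomyocyte genes in each library, for all 10 markers (left) and for Pdgfra, Dcn, Lum, Tcf21 and Ddr2 (right), with black bars for the group mean ± SD (n = 3). Both panels span the same height in log2 units but start at different values; the groups overlap in both, and the mean difference is 0.028 on the left and 0.0011 on the right.

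Single markers relative to the cardiomyocyte mean gave a somewhat different picture from CPM. Lum was -2.71, -2.73 and -2.67 in DMSO and -2.64, -2.56 and -2.59 after 3Cl-HBA. Thy1 was -4.65, -4.71 and -4.73 in DMSO and -4.48, -4.58 and -4.60 after 3Cl-HBA. Both lay entirely higher in the treated libraries, as 7.83% of all genes tested did on this scale. Tcf21, whose CPM did not overlap, overlapped here, with -4.56, -4.57 and -4.60 in DMSO and -4.59, -4.70 and -4.74 after 3Cl-HBA. Of the 16 cardiomyocyte genes 0 passed the test, 7 had a log2 fold change above 0, and the median was -0.0028. An unadjusted edgeR p under 0.05 was found for 3 of the 16, against 5.11% of all genes tested. They were Myh7, Myl2 and Ryr2 (named after their values were seen), with log2 fold changes of -0.097, -0.139 and -0.169. In CPM the groups did not overlap for 3 of the 16, each lower after 3Cl-HBA, against 5.22% of all genes tested. These were not the same 3 genes, since Myh7 and Ryr2 were among them but the groups of Myl2 overlapped.

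Other genes of fibroblasts and their matrix were measured from lists beside the 10 markers. Of 23 tested, led by the matrix protein genes Sparc (2418 ± 62.0 FPKM), Col1a1 (1770.0 ± 53.8 FPKM) and Fn1 (760 ± 31.3 FPKM), 0 passed, 12 had a log2 fold change above 0 and the median was 0.0070. An unadjusted edgeR p under 0.05 was found for 1 of the 23, against 5.11% of all genes tested. It was the mesenchymal transcription factor Twist1 (named after its value was seen), with a log2 fold change of 0.24. Of 12 genes of myofibroblasts, the contractile form that fibroblasts take in injured heart and on stiff culture plastic, 0 passed and 8 were above 0, with a median of 0.021. The highest were smooth muscle actin Acta2 (699 ± 26.7 FPKM) and the actin-binding Tagln (593 ± 20 FPKM). Which cells of the culture made them was not tested. Of 17 tested relatives and partners of the markers, such as other leucine-rich proteoglycans, growth factors for Pdgfra and other S100 proteins, 0 passed and 10 were above 0, with a median of 0.018. They were led by the proteoglycan Bgn (846 ± 36.6 FPKM), S100a11 (749 ± 30.9 FPKM) and desmin Des, an intermediate filament protein of muscle (646 ± 30.7 FPKM). Proliferation genes gave 0 of 8, with a median of 0.020, and the highest were Pcna (58.8 ± 3.82 FPKM), Cdk1 (33.8 ± 1.43 FPKM) and Ccnb1 (30.1 ± 1.75 FPKM). The counts above 0 stand beside 49.8% for all genes.

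Several markers are shared with other heart cells, so the lists of those cells were set beside them. Summed FPKM of 12 macrophage and leukocyte genes was 275 to 296 in DMSO and 293 to 305 after 3Cl-HBA, led by Lyz2 (156 ± 6.31 FPKM), Cd68 (55.2 ± 3.52 FPKM) and Fcer1g (28.2 ± 1.01 FPKM). Cd3e, a gene of the T cell receptor complex, had 1 read in all 6 libraries together, and the B cell gene Cd79a had 7. Of the 9 endothelial genes, with a sum of 177 to 205 FPKM in DMSO and 184 to 190 after 3Cl-HBA, Eng (136 ± 6.69 FPKM), Egfl7 (13.3 ± 1.59 FPKM) and Kdr (9.49 ± 0.348 FPKM) were highest. The 9 genes of smooth muscle and pericytes summed to 162.91 to 167.39 FPKM in DMSO and 153.25 to 162.89 after 3Cl-HBA. They were led by Rgs5 (40.3 ± 2.75 FPKM), Abcc9 (32.5 ± 1.7 FPKM) and Myh11 (28.8 ± 1.35 FPKM). Genes of the epicardium, which like Wt1 were low, summed to 42.5 to 47.0 FPKM in DMSO and 44.3 to 46.8 after 3Cl-HBA over 9 genes, led by Upk1b (16.9 ± 0.999 FPKM), Aldh1a2 (7.43 ± 0.508 FPKM) and Krt8 (6.9 ± 0.702 FPKM). None of the tested genes of these 4 lists passed, and 0 had an unadjusted edgeR p under 0.05. Over all genes tested, 49.8% had a log2 fold change above 0. Log2 fold changes were above 0 in 9 of 10 tested macrophage and leukocyte genes (median 0.078) and in 6 of 8 epicardial genes (median 0.095). They were above 0 in 4 of 9 endothelial genes (median -0.026) and in 4 of 9 genes of smooth muscle and pericytes (median -0.035). What part these cells have in the levels of Vim, S100a4, Thy1 and Wt1 was not tested. Nor was it tested which cells made the genes of each list.

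**Figure D5:**
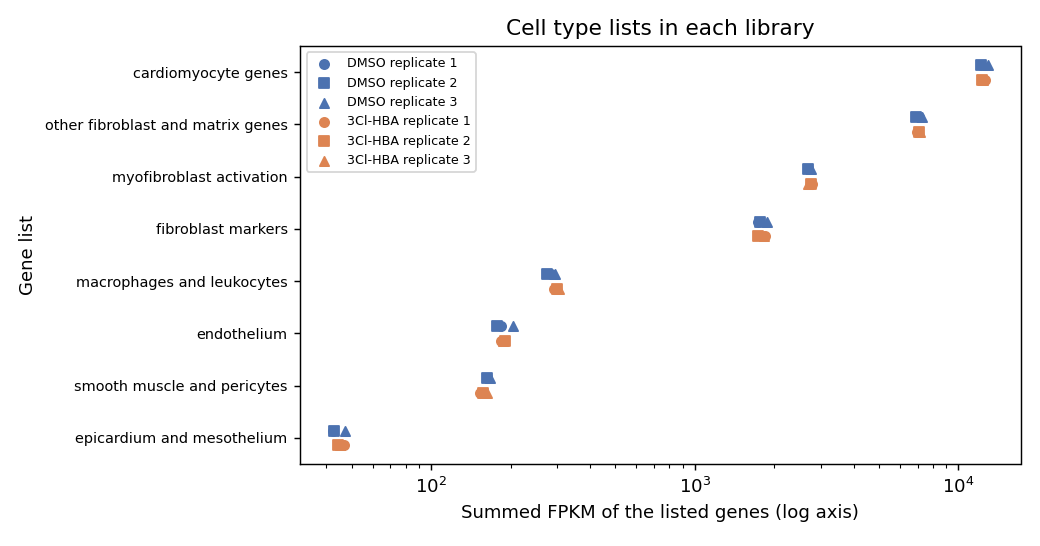
Summed FPKM of each gene list in each library on a log axis, with blue symbols for DMSO and orange symbols for 3Cl-HBA (3 libraries each). The fibroblast markers sum to 1732 to 1883 FPKM, below the cardiomyocyte genes at 12150 to 12913. They also lie below the other fibroblast and matrix genes at 6912.5 to 7257 and the myofibroblast genes at 2678.8 to 2781.9. They lie above the lists of macrophages and leukocytes, endothelium, smooth muscle and pericytes, and epicardium. Sums depend on which and how many genes a list holds.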

How the data were processed

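The deposited table holds, per the file headers, whole-number read counts per gene and library and the FPKM the authors computed from them, with gene length in bases. Per the labels' protocols, libraries were made with a ribosomal RNA depletion kit (KAPA RiboErase), sequenced by Illumina and analysed with DESeq2. No source used here states the aligner, counting program, strand setting or genome build. No row of the table overlaps a marker gene.

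The count test was edgeR 4.0.16 under R 4.3.3 (filterByExpr with a minimum count of 10, TMM scaling, then robust glmQLFit and glmQLFTest without a block), which kept 13903 genes and all 10 markers, with Benjamini-Hochberg adjustment over all genes at 0.05. Intervals are 95% and come from the test's degrees of freedom. Log2 CPM used a prior count of 2. Exact permutation was left out, since its smallest p with 3 libraries a side is 0.1. FPKM were used to compare genes and were not tested. Alternatives were DESeq2 1.42.0, limma-voom (limma 3.58.1), other scaling and filters, a replicate block and leaving out each library. The procedure was also run on simulated counts with known changes, and the outcome is not reported here.

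Beside the 10 markers, all named, the text names the 3 members of each list with the highest mean FPKM and the genes it says were named after their values were seen. Cd3e and Cd79a were also named so. A value of 1 list member is not reported here. Of the list symbols, 3 (Col1a2, Muc16 and Pecam1) were not matched. The markers and lists were chosen with earlier results of these data known. Depth was 13240800 to 17202191 reads per library.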

Additional observations from a re-analysis of the deposited data

How the results depend on the processing

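The count of markers past the threshold was 0 under each of 13 alternatives. Their median log2 fold change, 0.0024 in the main analysis, ran from -0.0394 to 0.041 when single libraries were left out. The spread between replicates was 0.0496. Leaving out a single library can move a group mean by only part of that spread, so the comparison does not test stability. Log2 fold changes of Pdgfra, Dcn, Lum, Tcf21, Ddr2 and Thy1 kept their sign under all 13, and those of the others turned only with single libraries left out, over ranges of -0.0163 to 0.0418 for Vim, -0.0534 to 0.052 for S100a4, -0.0632 to 0.14 for Fap and -0.163 to 0.0321 for Wt1. The lowest adjusted p of a marker under any alternative was 0.567. Over all genes the count of 0 became 2 with no filter on low counts and ran from 0 to 8 with single libraries left out (1 and 8 without DMSO replicates 2 and 3, 2 and 3 without 3Cl-HBA replicates 2 and 3), and the cause was not tested. The difference of markers minus cardiomyocyte genes was 0.0285 with all 10 markers and libraries. It was 0.00111 with Pdgfra, Dcn, Lum, Tcf21 and Ddr2 alone, and 0.0213 to 0.0421 with single libraries left out. The labels share replicate numbers between the groups, but same-numbered libraries did not deviate together (r over genes of -0.0692, -0.0438 and -0.0447), so the numbers were not taken as pairs, and no library correlated best with its own number. With the replicate block, 0 genes and 0 markers passed. Depth limits Fap most, with 54 to 87 reads per library.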
